A study of Mus musculus with 11 samples.

Results

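The genes described here encode the proteins of the cytosolic ribosome in mouse embryonic neural tissue. They were chosen by symbol: Rpl or Rps followed by a number with an optional a, x or l, together with Rplp0, Rplp1, Rplp2 and Rpsa, all annotated as protein-coding. Pseudogene rows, whose symbols end in -ps, and the Rps6k kinase genes were left out. The rule found 81 of the 27179 genes in the count files, 50 of the large subunit (Rpl) and 31 of the small subunit (Rps), and 4 of them lie on the X chromosome. An expression filter left 77 of the 81 among 14542 genes that could be tested. Brains of 11 embryos at embryonic day 9.5, cut just behind the otic vesicle (the primordium of the inner ear), had been profiled by sequencing of polyadenylated RNA, with 1 library per embryo. The 4 affected females and 4 control males carried p53-/- Bim+/-, and the 3 control females carried p53+/+ Bim+/-, all on C57BL/6. No group was wild type for Bim, a pro-apoptotic protein, since every embryo was Bim+/-. The labels do not say how the affected females were affected. No embryo was a p53+/+ male or an unaffected p53-/- female, so p53 genotype and being affected cannot be told apart in the comparison with control females, nor sex and being affected in the comparison with control males.

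A ribosome is built in the nucleolus from ribosomal RNA and one copy of nearly every ribosomal protein, which are imported from the cytoplasm and added in a fixed order. Their mRNAs are short and abundant, and most begin with a 5′ terminal oligopyrimidine (TOP) tract, a run of C and T bases starting at a C, through which growth signals set their translation together. When ribosome assembly is disturbed, free ribosomal proteins, above all Rpl5 and Rpl11, bind Mdm2, the ubiquitin ligase that degrades p53, and p53 rises. In mice, loss of a single ribosomal protein often causes defects of the neural tube, craniofacial skeleton or blood that depend on p53.

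The TOP tract is the sequence feature that the mRNAs are known to share, and it was looked for in the RefSeq promoter table (assembly GRCm38.p6), which matched 61 of the 81 genes with 73 start sites. An unbroken run of C and T of at least 8 bases, starting with C, on the strand of the gene and within 25 bases of the annotated start, was found at 52.1% of these start sites, against 16.4% of 32851 promoters of all genes. With a minimum of 5 bases the shares were 82.2% and 54.8%. The windows of 30 bases below show such runs in capitals. The first 5 genes had the lower level in affected females that is described further on, and the last 3 did not pass that test.
Rps12 (chr10:23787184-23787213, minus strand): ggccaccgccggCCTTTTCCCCTgccgccg
Rps15a (chr7:118116145-118116174, minus strand): ttgcccggcccaCTCTCTTTCTgccatctt
Rps24 (chr14:24490664-24490693, plus strand): ccgcgctggggtCCTTCCTTgcgcgttgat
Rpl31 (chr1:39367821-39367850, plus strand): tccctcgccacaCCTCTTCCTCCTCgcctc
Rpl13a (chr7:45128726-45128755, minus strand): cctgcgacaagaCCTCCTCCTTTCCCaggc
Rpl4 (chr9:64173358-64173387, plus strand): caagtgacaagtCTTTCCTTTTCCTgtggg
Rplp2 (chr7:141447635-141447664, plus strand): ctgcgtcagcgtCTTCCTTTCgccgccgga
Rpl38 (chr11:114668568-114668597, plus strand): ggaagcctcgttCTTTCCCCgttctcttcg
A long run was thus present in genes of either kind. Among the 35 tested genes with a run of at least 8 bases, 19 were lower in affected than in control females, and among 22 with a start site but no such run, 12 were lower, with medians of the log2 fold change of -0.47 in both sets. Of the 20 tested genes that matched no start site, 5 were lower, with a median of -0.16.

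Whole libraries held 8211942 to 11218682 counts. Neural progenitor markers were all 12 measured. Their sum per embryo was 1980 to 2236 CPM (counts scaled to library size) in affected females. It was 1603 to 2053 CPM in control males and 1708 to 1784 CPM in control females. Ccng1, a gene that p53 activates directly, followed the p53 labels, with 21.8 to 33.5 CPM in the 8 p53-/- embryos and 74.7 to 93.8 CPM in the 3 p53+/+ embryos. Control female 1 and control male 4 stood apart from their groups for many of the genes below, so the counts that follow were also computed without them, a choice made after seeing the data. CPM values are scaled by TMM, a normalisation for library composition. Each fold change is given with its standard error (SE), and each p was computed by the quasi-likelihood test of edgeR and adjusted by Benjamini-Hochberg across 14542 genes, and a gene is called where its adjusted p is under 0.05. The labels do not say whether embryos shared a litter, so the p-values measure the spread between these embryos only.

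Ribosomal protein genes were well expressed for their length but spread over a wide range of levels. The median level per kilobase of gene length, averaged over embryos, was 170 CPM per kb, against 9.11 CPM per kb over all tested genes. Among the highest were Rpl4, which lines the tunnel through which the new protein leaves the ribosome, at 1223 CPM per kb, Rpl41 at 1193, Rpl26 at 1025 and Rpl32 at 902. The lowest tested were Rpl36 at 4.88 CPM per kb, Rpl28 at 7.85, Rpl11 at 10.8, Rps16 at 11.8 and Rpl27 at 12.3.

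**Figure D1:**
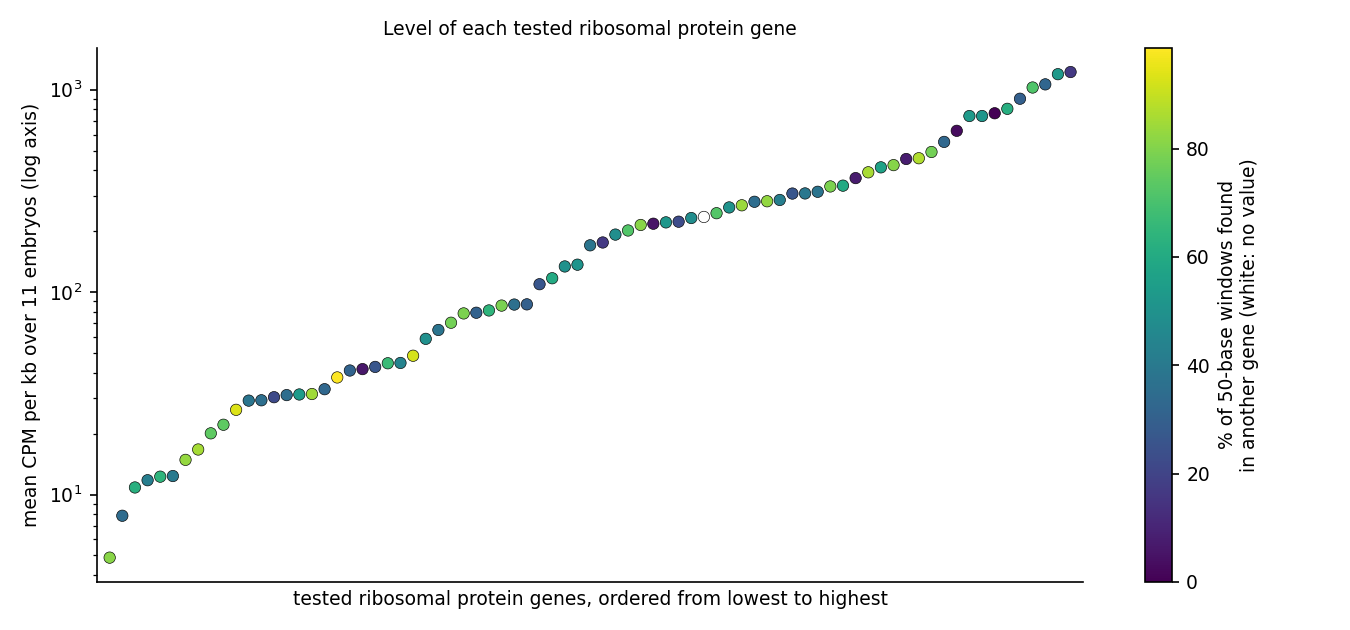
Mean level of each of the 77 tested ribosomal protein genes, in CPM per kb of gene length on a log axis, ordered from lowest (Rpl36, 4.88) to highest (Rpl4, 1223). Colour gives the percent of 50-base windows of its transcript that also occur in another gene's transcript or a pseudogene, and Rpl32l (white) has no value.

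The other 4 genes were below the expression filter. Rpl10l, a retrocopy of Rpl10 used in the male germ line, had 0 counts in all 11 libraries. Rpl3l, a muscle form of Rpl3, had 3 counts and Rpl39l, a testis form of Rpl39, had 15 counts over all libraries. Rpl13, a core protein of the large subunit in all cells, had 12 counts in all, or a mean of 0.111 CPM, while the pseudogene row Rpl13-ps6 had a mean of 261 CPM. Of the 50-base windows of the Rpl13 transcript, 80.3% also occur in other transcripts of the GENCODE vM21 annotation. How reads that fit several genes were counted is not stated in the labels, so the level of a gene with such copies is uncertain.

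Copies were common in the family. The percent of 50-base windows found elsewhere was 3.0% for Rps3, near the low end, and reached 98.6% for Rps27. Across 76 tested genes with a value, Spearman's rho between this percent and the log2 level per kb was -0.16, and between this percent and the log2 fold change of affected against control females it was -0.09. These are correlations across genes, which share libraries and are not independent. The percent is taken over the chosen transcript of each gene, which can be longer than the deposited gene length. For Rps20 the transcript has 3706 bases against a deposited 502, and 7.6% of its windows are shared. A long uncopied stretch lowers the percent, so a low percent does not mean that few counted bases are copied. Of 19 genes with under 33% of windows shared, 11 were called lower in affected than in control females, with a median log2 fold change of -0.37. The figures were 13 of 34 and -0.34 for 33% to 67%, and 11 of 23 and -0.39 for at least 67%.

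Summed over the 81 genes, ribosomal protein counts took the smallest share of the library in affected females. They made up 1.55%, 1.61%, 1.33% and 1.17% of all counts in affected females 1 to 4. The share was 1.90%, 1.65%, 1.77% and 1.496% in control males 1 to 4 and 1.91%, 1.64% and 1.76% in control females 1 to 3. Every affected female lay below every control female, while control male 4 lay below affected females 1 and 2. Group means were 1.42% ± 0.20 (SD, n = 4), 1.71% ± 0.17 (SD, n = 4) and 1.77% ± 0.14 (SD, n = 3). Counts of genes of the mitochondrial genome were also lowest there, at 1.31% to 1.69% of a library, against 2.06% to 3.82% in control males and 2.48% to 4.99% in control females. With those genes taken out of the totals, the means were 1.44%, 1.76% and 1.84%. In such bulk tissue, fewer cells of a type and less RNA per cell cannot be told apart.

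Affected females differed from control females in 46.8% of the tested ribosomal protein genes by a lower level, and in 1 gene by a higher one. Of the 77 genes 36 were called lower, against 15.0% of all tested genes called lower, and 1, Rps4x, was called higher, against 13.0% of all genes (28.0% in either direction). The median log2 fold change was -0.37, against -0.005 over all genes, and 67 of the 77 values were negative. In 38 of 77 genes every affected female lay below every control female, as for 20% of all tested genes, and in 0 of 77 every one lay above, as for 20.2%. Large subunit genes were lower in 19 of 46 cases (median -0.31) and small subunit genes in 17 of 31 (median -0.48), with the only rise in the small subunit. Of the 36 genes, 19 were called lower in each of 24 settings of the analysis. Among these, named here after their values were seen, are Rpl9, Rpl10, Rpl12, Rpl13a, Rpl17, Rpl31, Rpl34, Rpl37, Rps7, Rps12, Rps13, Rps15a, Rps16, Rps21, Rps24, Rps25, Rps27a and Rps27l. The number called was 22 without affected female 3, and 35 without both control female 1 and control male 4.

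**Figure D2:**
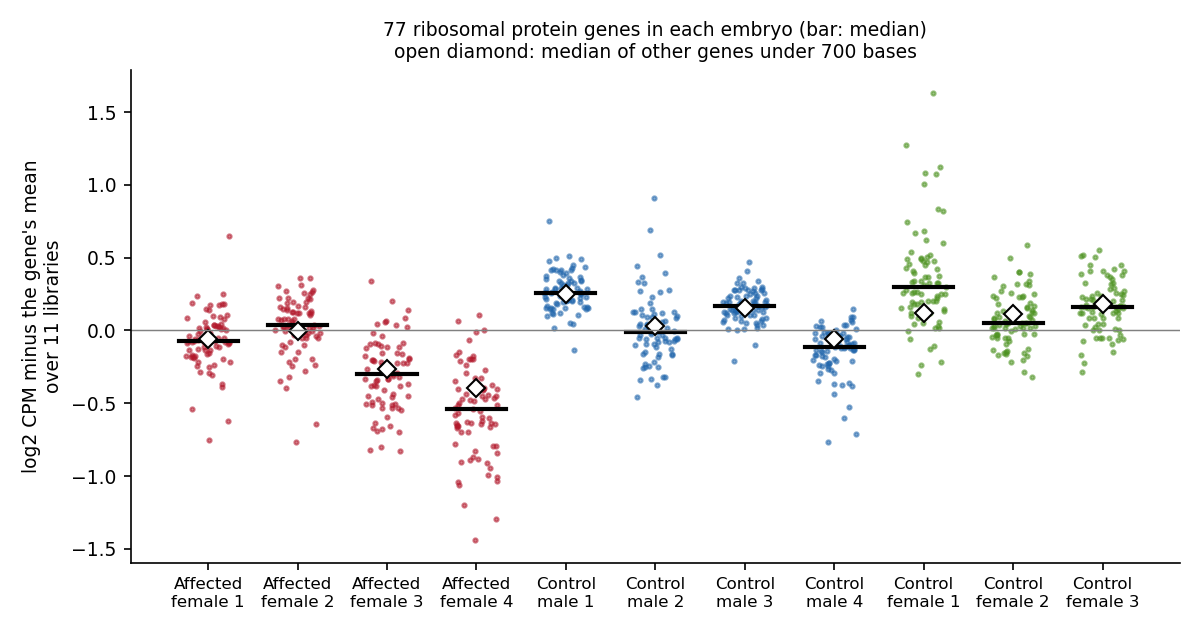
Each point is 1 of 77 ribosomal protein genes in 1 embryo, as log2 CPM minus that gene's mean over the 11 libraries, with the embryos of each group side by side. Bars are medians over the genes, lowest in affected female 4, and open diamonds are the medians of other genes under 700 bases, which follow the bars.

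The embryos of a group were not alike. The median over ribosomal protein genes of the centred log2 level was -0.07, 0.04, -0.30 and -0.54 in affected females 1 to 4. It was 0.26, -0.01, 0.17 and -0.12 in control males and 0.30, 0.05 and 0.16 in control females. Affected females 3 and 4 were the lowest embryos and control female 1 and control male 1 the highest, while affected females 1 and 2 lay within the range of the control males. Affected female 4 had the lowest level of all embryos for 62 of the 77 genes, and control female 1 the highest for 42. The genes moved together across embryos: Pearson's r between a gene and the median of all 77, over 11 libraries, had a median of 0.91, and 52 genes had a value over 0.8. This is a description, since the median contains the gene itself. Rps4x (-0.39), Rpl4 (-0.27) and Rps2 (-0.12) were the 3 genes with a negative value, and Rpl8 (0.09) and Rplp0 (0.15) came next.

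Gene length moved with this pattern. Ribosomal protein genes are short, with a median length of 679 bases against 2840 bases over all tested genes, and other short genes were also lower. Of 685 tested non-members under 700 bases, 219 were called lower and 15 higher in affected than in control females, with a median log2 fold change of -0.35. The median was -0.14 for non-members of 700 to 1000 bases and 0.04 for those over 4000 bases. Ribosomal protein genes under 700 bases had a median of -0.50, with 21 of 40 called lower. When the trend of each library on gene length was removed before testing, 27 ribosomal protein genes were called lower and 6 were called higher against control females, beside 15.1% and 14.4% of all genes, and the median shrank from -0.37 to -0.22, against 0.01 over all genes. After removal of trends on length and GC content, an alternative added after seeing the data, 32 were lower and 5 higher. Of all genes, 15.7% were then called lower and 14.4% higher. The family's median was -0.23 in that setting, against 0.006 over all genes. The 5 genes outside the family whose level followed the family's median most closely over the 11 libraries were also short, at 354 to 823 bases: Entrez gene 100862257 (r = 0.993), the nucleoside diphosphate kinase gene Nme2 (r = 0.987), the respiratory chain assembly gene Uqcc2 (r = 0.986), Gm2614 (r = 0.986) and Gm14586 (r = 0.986).

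**Figure D3:**
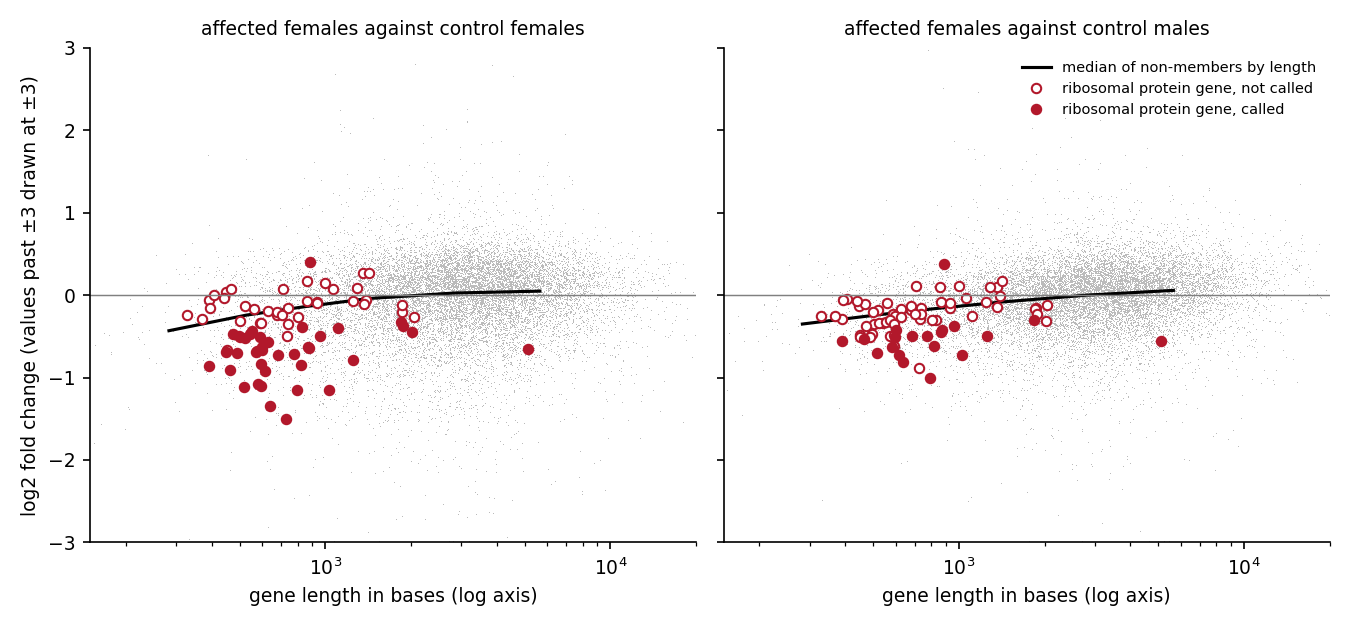
Log2 fold change against gene length in bases (log axis) for all tested genes (grey) and for the 77 ribosomal protein genes (red, filled where called), in affected females against control females and against control males. The black line joins medians of the other genes by length; most ribosomal protein genes under 1000 bases lie below 0 in both comparisons, and the line also falls below 0 there.

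The large subunit held the largest falls against control females. Rpl9, a large subunit protein near the stalk that recruits translation factors, had 13.3, 9.66, 9.41 and 9.49 CPM in affected females. It had 51.0, 19.2 and 19.8 CPM in control females and 23.2, 26.5, 17.9 and 9.63 CPM in control males. All affected females were below all control females, but control female 1 was far above the other control females and control male 4 lay among the affected. The difference from control females was 2.84-fold (log2 fold change -1.51, SE 0.34, adjusted p = 0.00742). Rpl9 shares 93.3% of its windows with copies. Rpl12, which carries the stalk base and shares 49.0% of its windows, had 22.1, 28.05, 21.3 and 16.7 CPM in affected females. It had 72.0, 48.2 and 48.5 CPM in control females and 48.5, 42.8, 41.6 and 22.4 CPM in control males. Affected and control females did not overlap, at a 2.55-fold difference (log2 fold change -1.35, SE 0.22, adjusted p = 0.00256), and again control male 4 was at the level of the affected females. Rpl13a, which also takes part in silencing of inflammatory mRNAs, had 23.5, 21.9, 18.5 and 14.9 CPM in affected females against 62.7, 31.5 and 37.6 CPM in control females (log2 fold change -1.15, SE 0.23, adjusted p = 0.0043). Only 22.0% of the windows of Rpl13a occur elsewhere.

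Rpl17, at the mouth of the exit tunnel, differed less in size but more evenly. Its levels were 59.6, 56.3, 47.3 and 37.3 CPM in affected females and 93.8, 76.7 and 77.03 CPM in control females. Control males had 71.4, 73.7, 77.03 and 61.2 CPM, all above all affected females, with control male 4 nearest to them and control males 1 to 3 nearer to control females 2 and 3. Rpl17 had log2 fold changes of -0.72 (SE 0.14, adjusted p = 0.004) against control females and -0.50 (SE 0.13, adjusted p = 0.0196) against control males. Rpl31, another protein of the tunnel mouth, had 30.8 ± 6.12 CPM (SD, n = 4) in affected females, 43.5 ± 7.15 CPM (SD, n = 4) in control males and 53.3 ± 9.81 CPM (SD, n = 3) in control females, and was called lower against both control groups (log2 fold changes -0.79, SE 0.16, and -0.50, SE 0.15).

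In the small subunit, Rps12, a protein of the head region that is known from cell competition in flies, had 115, 109.5, 72.9 and 62.1 CPM in affected females. Control males had 171, 157, 157 and 101 CPM, and control females 232, 167 and 184 CPM. The affected females were below all control females, and only control male 4 lay among them. The log2 fold change was -1.11 (SE 0.21, adjusted p = 0.0035) against control females and -0.71 (SE 0.19, adjusted p = 0.023) against control males. Rps16, whose tail reaches the decoding site, was among the least counted members at 5.28, 5.55, 4.29 and 4.46 CPM in affected females. It had 8.84, 8.68, 9.17 and 5.63 CPM in control males and 7.85, 10.4 and 9.46 CPM in control females, so the affected females lay below every control embryo. Its log2 fold changes were -0.92 (SE 0.19, adjusted p = 0.00541) and -0.72 (SE 0.18, adjusted p = 0.0178). Rps13, which binds the central domain of the small subunit RNA, had 5.72 ± 0.84 CPM (SD, n = 4) in affected females, 8.87 ± 1.56 (SD, n = 4) in control males and 12.2 ± 4.33 (SD, n = 3) in control females.

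Rps15a, whose deposited gene length of 5136 bases is the longest of the family, had 182, 179, 144 and 138 CPM in affected females against 230, 260 and 271 CPM in control females and 264, 268, 240 and 178 CPM in control males. Its log2 fold changes were -0.66 (SE 0.14, adjusted p = 0.00541) and -0.56 (SE 0.13, adjusted p = 0.0132). Of the windows of its long transcript (5179 bases), 6.4% occur elsewhere, in 64 other genes. The pseudogene row Rps15a-ps6 had a mean of 254 CPM over all embryos, against 214 CPM for Rps15a, so the level of Rps15a is uncertain too. Rps27a, made as a fusion with ubiquitin and split after translation, had 240 ± 59.3, 368 ± 63.0 and 433 ± 65.2 CPM in affected females (SD, n = 4), control males (n = 4) and control females (n = 3). It was called lower in affected females against control females (log2 fold change -0.85, SE 0.18) and control males (-0.62, SE 0.17).

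**Figure D4:**
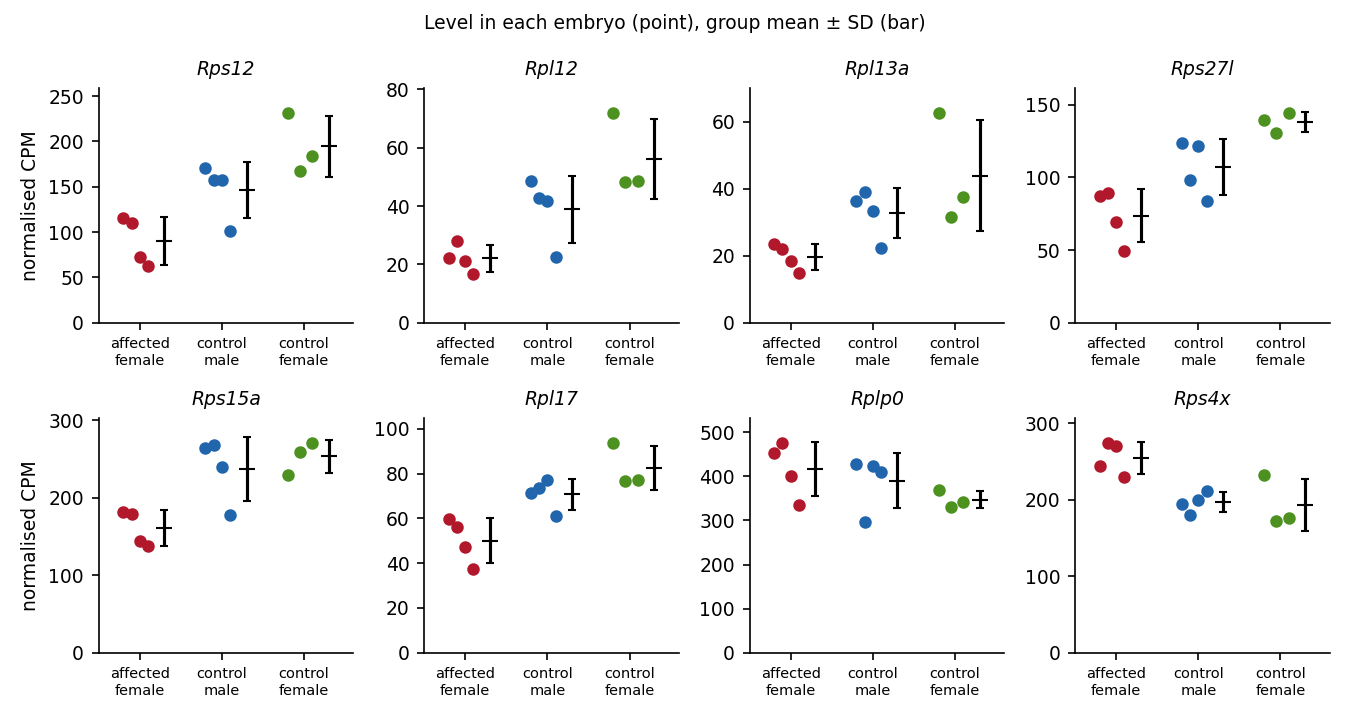
Normalised CPM of 8 ribosomal protein genes in each embryo (points) with the group mean ± SD (bars; n = 4, 4 and 3 embryos). Rps12, Rpl12, Rpl13a, Rps27l, Rps15a and Rpl17 lie lower in affected females than in every control female, Rplp0 overlaps between groups, and Rps4x is higher in affected females than in every control male.

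Rps4x, an X-linked small subunit gene that shares 72.2% of its windows with copies, went the other way. Its levels were 244, 275, 271 and 231 CPM in affected females and 195, 181, 200 and 212 CPM in control males. Control females had 233, 172 and 176 CPM. All affected females were above all control males, whereas control female 1 lay above affected female 4. The rise was 1.32-fold against control females (log2 fold change 0.40, SE 0.11, adjusted p = 0.0186) and 1.29-fold against control males (0.37, SE 0.10, adjusted p = 0.0238). It was not called against control females without affected female 3, control female 2 or control female 3, nor against control males without affected female 2 or 3 or control male 1, 2 or 3. None of the other 3 X-linked genes tested was called higher. Rpl10, which joins the large subunit last and shares 92.1% of its windows with copies, had 29.4, 22.4, 19.8 and 19.0 CPM in affected females, 49.1, 65.7, 42.5 and 24.4 CPM in control males and 70.2, 43.5 and 38.3 CPM in control females. It was lower in affected females against both (log2 fold changes -1.16, SE 0.27, and -1.002, SE 0.25). Rpl36a was called lower against control females (6.16 ± 1.39 against 10.1 ± 2.75 CPM, SD, n = 4 and 3; log2 fold change -0.70, SE 0.20), and its value against control males was -0.50 (SE 0.19, adjusted p = 0.0644). Rpl39 had log2 fold changes of -0.15 (SE 0.17) and -0.07 (SE 0.16), neither called. Rps4l, a relative of Rps4x that is not in the family, was also called higher against control females (log2 fold change 0.71, SE 0.18, adjusted p = 0.0112). It was not called against control males.

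The proteins of the acidic stalk, Rplp0, Rplp1 and Rplp2, and Rpsa, a small subunit protein also described as a laminin receptor, were not called in any comparison by edgeR's test as described above. With the length trend removed, alone or with GC, Rplp1 was called higher against control females, and limma voom called Rplp0 and Rpl4 higher against control females. Rplp0 had 453, 476, 402 and 336 CPM in affected females, 429, 297, 424 and 410 CPM in control males and 369, 331 and 341 CPM in control females. The groups overlapped, and the log2 fold change against control females was 0.26 (SE 0.14, adjusted p = 0.156). Rplp1 stood at 0.07 (SE 0.18), Rplp2 at -0.04 (SE 0.15) and Rpsa at -0.21 (SE 0.10). Rpl4, the most abundant gene per kilobase, stood at 0.27 (SE 0.13, adjusted p = 0.114) with 1904 ± 87.2 CPM (SD, n = 4) in affected and 1576 ± 220.5 CPM (SD, n = 3) in control females.

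Of 15 listed ribosomal proteins that bind Mdm2 or act on p53, 7 were called lower against control females and none higher (median -0.37), and 3 against control males (median -0.26). The shares, 46.7% and 20%, were close to or below those of the whole family (46.8% and 24.7%), beside 15.0% and 10.7% of all tested genes. Rpl11 had 4.09, 5.03, 3.73 and 4.17 CPM in affected females and 14.3, 6.36 and 7.05 CPM in control females. Control males had 7.90, 8.48, 5.13 and 4.54 CPM, so control male 4 overlapped the affected females and control female 1 stood high. The difference from control females was called (log2 fold change -1.10, SE 0.29, adjusted p = 0.0134) and that from control males was not (-0.61, SE 0.27, adjusted p = 0.115). Rpl5, its partner in the complex with 5S ribosomal RNA, had 344, 376, 308 and 282 CPM against 515, 394 and 428 CPM in control females, a smaller but called difference (-0.44, SE 0.12, adjusted p = 0.0164). Rps7 and Rpl26 were called lower against control females (-0.49, SE 0.12, and -0.47, SE 0.14). Rpl23 stood at 0.07 (SE 0.11), Rps20 at -0.31 (SE 0.12, adjusted p = 0.0595) and Rps14 at -0.34 (SE 0.13, adjusted p = 0.0548).

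Genes of Diamond-Blackfan anaemia, an inherited failure of red cell production caused by loss of 1 copy of a ribosomal protein gene, were lower in 11 of 16 listed cases against control females (median -0.49) and in 5 of 16 against control males (median -0.33), and none was higher. These are 68.8% and 31.2% of the list, beside 46.8% and 24.7% of the family and 15.0% and 10.7% of all tested genes, and the difference from the family was not tested. Rps19, the gene most often affected, had 16.3 ± 3.86 CPM (SD, n = 4) in affected and 24.3 ± 2.70 CPM (SD, n = 3) in control females (log2 fold change -0.57, SE 0.19, adjusted p = 0.0353), and its value against control males was -0.26 (SE 0.18, adjusted p = 0.292). Rps24 was called against both groups (-0.64, SE 0.14, and -0.42, SE 0.13). Rpl38 and Rpl24, whose mouse mutants Tail short and Belly spot and tail have skeletal and neural defects, stood at -0.30 (SE 0.18) and -0.21 (SE 0.16) against control females, neither called. The list overlaps the one above and was chosen with earlier results of these data known.

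The comparison with control males is within p53-/- embryos, and it uses the same affected females as the comparison above, so the counts of the 2 comparisons are not independent. Of 77 genes 19 were called lower, against 10.7% of all tested genes, and Rps4x alone was called higher, against 9.51% (20.2% in either direction). The median log2 fold change was -0.29, against -0.02 over all genes. The smallest adjusted p values among the falls were those of Rps15a, Rps16, Rpl10, Rpl17, Rpl12, Rps27a and Rps12. In 5 genes, Rpl17, Rpl36a, Rps13, Rps16 and Rps23, every affected female lay below every control male, as for 9.43% of all genes, and in 1, Rps4x, above, as for 10.1%; Rps23 is named after its values were seen. No gene of the 77 was called lower in every setting. The count of 19 became 0 without affected female 3 or without control male 1, 1 without affected female 4, 2 without control male 2 and 4 without control male 3, and 29 without affected female 2, 34 without control male 4 and 39 without both control female 1 and control male 4. The median was -0.18 without affected female 4. With the length trend removed, 10 of the 77 were lower, near the 10.2% of all genes then called lower, and the median shrank to -0.11; 4 genes were higher, namely Rps4x, Rpl8, Rps2 and Rpl29 (the last 3 named after their values were seen).

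Control males and control females, which differ in sex and p53 genotype, did not differ in any ribosomal protein gene by edgeR's test, against 0.144% of all genes called (0.0963% lower and 0.0481% higher). At an unadjusted p under 0.05, 2 of the 77 genes, Rpl12 and Rps27l, were lower in control males and 0 higher, against 6.13% of all genes in either direction. DESeq2 also called 0 of the 77 genes, and limma voom with sample weights called 2 higher, Rpl4 and Rplp0, of 1569 genes called. The median log2 fold change was -0.11, against -0.001 over all genes. The 77 genes had no log2 difference below -0.63 (Rpl9, SE 0.33) or above 0.23 (Rps29, SE 0.21, named after its values were seen).

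Rps27l is known as a direct target of p53 and is a near copy of Rps27, a zinc finger protein of the small subunit. The coding sequences from GENCODE vM21 (GRCm38) are shown because they decide what counts of the pair can tell. Both have 252 bases; capitals mark the 60 bases at which Rps27l differs, which leaves 76.2% identity.
Rps27 (chr3:90212728-90213615, minus strand): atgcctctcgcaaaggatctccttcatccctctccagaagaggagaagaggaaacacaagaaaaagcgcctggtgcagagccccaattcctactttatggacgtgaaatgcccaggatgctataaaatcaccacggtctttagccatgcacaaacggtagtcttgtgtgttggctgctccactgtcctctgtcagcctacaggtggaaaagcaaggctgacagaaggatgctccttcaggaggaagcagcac
Rps27l (chr9:66946175-66949354, plus strand): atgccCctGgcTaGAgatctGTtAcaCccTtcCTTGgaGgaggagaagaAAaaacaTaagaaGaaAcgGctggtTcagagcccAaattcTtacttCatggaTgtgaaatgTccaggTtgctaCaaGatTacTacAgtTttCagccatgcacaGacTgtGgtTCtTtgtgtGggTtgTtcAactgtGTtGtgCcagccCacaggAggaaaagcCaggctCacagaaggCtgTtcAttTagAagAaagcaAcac
The differences are spread along the whole sequence, and 22.4% of the 50-base windows of the whole Rps27l transcript occur in other genes. The retrogene Rps27rt, by contrast, has a coding sequence identical to that of Rps27, and 98.6% of the windows of Rps27 occur in other genes. Rps27l had 87.4, 89.0, 69.1 and 49.6 CPM in affected females, 124, 98.3, 122 and 83.9 CPM in control males and 139, 130.5 and 144.5 CPM in control females. The 8 p53-/- embryos all lay below the 3 p53+/+ embryos, and it was the only ribosomal protein gene tested for which control males and control females did not overlap, against 2.54% of all genes with lower ranges and 2.99% with higher ones. Rps27l was lower in affected females than in control females (log2 fold change -0.91, SE 0.17, adjusted p = 0.00369) and control males (-0.54, SE 0.16, adjusted p = 0.0305), and its value in control males against control females was -0.37 (SE 0.17, adjusted p = 0.782). Rps27 had 16.6 ± 6.45, 23.4 ± 5.51 and 26.5 ± 1.37 CPM in affected females (SD, n = 4), control males (n = 4) and control females (n = 3), with no call (adjusted p = 0.0518 against control females).

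The log2 ratio of Rps27l to Rps27 within each embryo, from which library scaling cancels, was 2.21 ± 0.25 (SD, n = 4) in affected females, 2.20 ± 0.14 (SD, n = 4) in control males and 2.38 ± 0.003 (SD, n = 3) in control females. The difference between affected and control females was -0.17 (two-sided exact permutation test, p = 0.314, adjusted p = 0.377 over 6 comparisons), and that between control males and control females was -0.18 (exact permutation p = 0.143, adjusted p = 0.214). The groups overlapped in both comparisons: control females lay within a narrow band, with affected female 4 and control male 2 above it. Rpl22 and its paralog Rpl22l1, a pair in which Rpl22 is known to hold down Rpl22l1 mRNA, were examined in the same way. The log2 ratio of Rpl22l1 to Rpl22 was -2.42, -2.32, -2.76 and -2.87 in affected females, -1.90, -1.84, -1.95 and -2.26 in control males and -1.79, -1.68 and -1.60 in control females. Affected females lay below all other embryos, by 0.90 and 0.61 in the means. Each two-sided exact permutation p was 0.0286 (35 and 70 splits, the smallest possible in each), with an adjusted p of 0.0857 over 6 comparisons. The deposited lengths are 477 bases for Rpl22l1 and 2040 bases for Rpl22. A library's trend on gene length therefore does not cancel from this ratio, and its part was not tested. By gene, Rpl22l1 fell from 151 ± 10.9 CPM (SD, n = 3) in control females and 113 ± 17.2 CPM (SD, n = 4) in control males to 69.5 ± 19.6 CPM (SD, n = 4) in affected females (log2 fold changes -1.12, SE 0.17, and -0.70, SE 0.16, both called). Rpl22 stood at -0.26 (SE 0.11) and -0.12 (SE 0.10), neither called.

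Ribosomal proteins whose symbols fall outside the rule were examined beside the family. Fau, the fusion that yields Rps30, was lower against control females (log2 fold change -0.86, SE 0.28, adjusted p = 0.0347), as was Rps3a1 (-0.38, SE 0.12, adjusted p = 0.0268). Rpl36al stood at -0.08 (SE 0.12) and Rpl7l1, a factor of ribosome assembly, at 0.21 (SE 0.09), neither called.

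Other lists of the translation apparatus were counted in the same way, beside 15.0% of all tested genes called lower and 13.0% higher against control females, and 10.7% and 9.51% against control males. Of 78 mitochondrial ribosomal protein genes, 10 were called lower and 4 higher against control females (median -0.03), and 12 lower and none higher against control males (median -0.15). Of 65 factors of ribosome biogenesis, 32 were called higher and 2 lower against control females (median 0.34) and 21 higher and none lower against control males (median 0.27). Among them Las1l and Utp4, factors of ribosomal RNA processing, rose by 0.66 (SE 0.13) and 0.64 (SE 0.13) against control females, and Polr1a, the largest subunit of RNA polymerase I, rose by 0.65 (SE 0.16) against control males. Of 20 translation factors whose mRNAs also carry TOP tracts, 4 were higher and 1 lower against control females (median 0.22), with the elongation factor gene Eef2 at 0.53 (SE 0.15). Of 23 other translation factors, 11 were higher and 1 lower (median 0.37): Eif4ebp2, an inhibitor of cap binding, rose by 0.66 (SE 0.12), while the helicase gene Eif4a2 fell by 1.16 on the log2 scale (SE 0.21). Myc and Mycn, transcription factors that activate ribosome genes, rose by 0.70 (SE 0.14) and 0.75 (SE 0.15) on the log2 scale against control females. Against control males Myc stood at 0.30 (SE 0.13, adjusted p = 0.0963) and Mycn at 0.25 (SE 0.13, adjusted p = 0.184), neither called. The median length was 2612 bases for the tested biogenesis factors, 1906 bases for the translation factors with TOP tracts and 2556 bases for the others. The part of length in these counts was not tested.

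The introns of host genes of small nucleolar RNAs release guides for ribosomal RNA modification, and their spliced RNAs often carry TOP tracts too. These host genes, with a median length of 762 bases, were called lower in 13 of 14 cases against control females (median -0.93). Against control males 10 of 14 were called lower (median -0.63). Of all tested genes, 15.0% and 10.7% were called lower in the same comparisons. Snhg1 had log2 fold changes of -1.16 (SE 0.18) and -0.82 (SE 0.17) with adjusted p of 0.00211 and 0.0102. Epb41l4aos fell by 0.90 (SE 0.15) and by 0.62 (SE 0.14) against control females and control males, and Snhg5 fell by 0.77 (SE 0.17) against control males. Taf1d, a factor of RNA polymerase I that itself hosts small nucleolar RNAs, was 1 of the 2 biogenesis genes that fell (-0.97, SE 0.18).

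**Figure D5:**
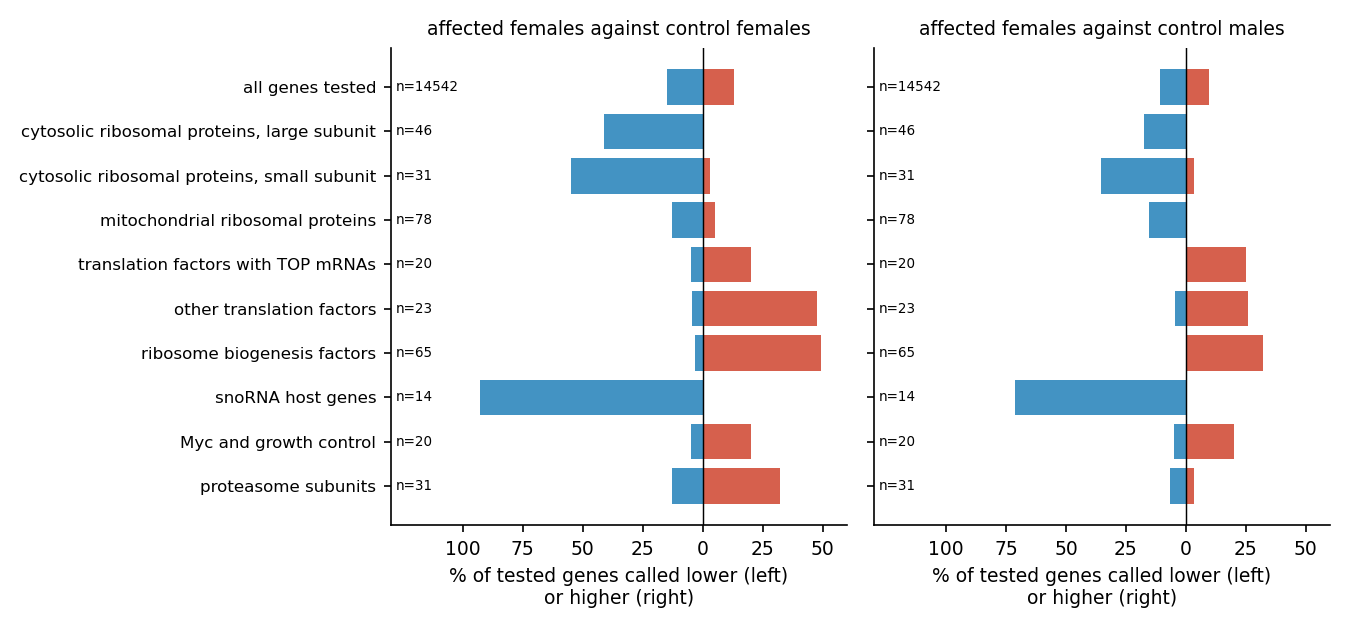
Percent of the tested genes of each list called lower (blue, left) or higher (red, right) in affected females against control females and against control males; n is the number tested. Both ribosomal subunits and the small nucleolar RNA host genes extend to the left, and biogenesis and translation factors extend to the right.

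Markers of cell types moved between the same groups. Of 12 neural progenitor markers, 3 were called lower and 3 higher against control females, beside 15.0% and 13.0% of all genes. Against control males 1 was lower and 1 higher, beside 10.7% and 9.51%. Early neuron markers summed to 174 to 215 CPM in affected females, 270 to 443 CPM in control males and 201 to 440 CPM in control females, with 10 of 14 called lower against each control group. Surface ectoderm markers summed to 351 to 401, 210 to 287 and 184 to 322 CPM, with 10 of 12 called higher against control females and 8 of 12 against control males. Primitive erythroid markers summed to 1539 to 2822, 2596 to 4168 and 1023 to 4944 CPM, and 0 of 12 were called by edgeR. Their part in the differences of ribosomal protein genes was not tested.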

How the data were processed

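Polyadenylated RNA of 11 embryos was sequenced, and the authors deposited raw read counts per Entrez gene for each library, counted with featureCounts on mm10 per the submitters' processing notes. Aligner, versions, strandedness and annotation release were not stated there. Groups follow the sample titles, and gene names come from a RefSeq table matched on Entrez number (25275 of 27179 genes). Gene length is the deposited length in bases.

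Counts were tested with edgeR 4.0.16 (R 4.3.3): filterByExpr, TMM scaling and a quasi-likelihood fit of group over all 11 libraries, with Benjamini-Hochberg adjustment over all tested genes and a threshold of 0.05. The code was tested on simulated data. Ratios of paralogs (pseudocount 1) were compared by exact permutation over embryos. Alternatives were other scalings and filters, DESeq2 1.42.0, limma 3.58.1 voom with sample weights, a replicate block, fits of only the groups compared, removal of trends on length (lowess span 0.3) or GC, summing with pseudogenes, and leaving out libraries. Totals of 8211942 to 11218682 counts set the precision.

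The genes and lists were chosen with earlier results of these data known. Named genes follow a rule: the stalk proteins and Rpsa, X-linked genes, genes tied to Mdm2, p53 or developmental defects, untested genes, the 5 highest and 5 lowest per kb, the 8 smallest adjusted p and 5 largest changes each way per comparison among called genes with average log2 CPM of at least 2, the 5 non-members most alike, set relatives, and up to 3 genes per list. Genes named outside the rule are marked as such. Some genes that the rule names are not reported here.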

Additional observations from a re-analysis of the deposited data

Results flagged for a closer look

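In 118 sets of 4 embryos, each the level of 1 named gene in 1 group, a single embryo was far from the other 3 in 5 cases by Dixon's criterion, which chance meets in about 1 of 20 sets. Rpl9 stood at 13.26 CPM in affected female 1, against 9.41 to 9.66 CPM in the other affected females. Rplp0 stood at 296.72 CPM in control male 2, against 409.77 to 428.82 CPM in the other control males. Rps16 stood at 5.6344 CPM in control male 4, against 8.68 to 9.17 CPM. Rps27a stood at 274.54 CPM in control male 4, against 392.15 to 410.11 CPM. The elongation factor gene Eef2 stood at 1511.9 CPM in affected female 3, against 1283.5 to 1317.7 CPM in the other affected females.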

How the results depend on the processing

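The median log2 fold change of the ribosomal protein genes kept its sign in both comparisons with affected females under each alternative that was run, and the 36 genes called lower against control females became 22 (without affected female 3) to 42 (without affected female 2) when 1 library was left out; 0 to 2 were higher. Against control males the 19 became 0 (without affected female 3 or control male 1) to 34 (without control male 4), with 0 to 1 higher. Over all genes, leaving out 1 library gave 1663 to 4957, 361 to 5140 and 18 to 35 calls in the comparisons with control females, with control males and between the controls.

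With limma voom and sample weights, 7639 genes were called against control females, 27.1% of all genes lower and 25.4% higher. Of the family, 45 were then lower and 5 higher. Against control males voom called 6397 genes, 22.4% lower and 21.6% higher, with 54 of the family lower and 1 higher. Between the controls it called 1569 genes, 6% lower and 4.79% higher, with 2 of the family higher and 0 lower. DESeq2 called 43 genes between the controls. With the length trend removed, 6 genes of the family were higher against control females, and 4 were higher and 10 lower against control males; with GC also removed, the counts were 5, 4 and 12. Without both control female 1 and control male 4, 2 were higher against control females, and 6014 genes and 39 of the family lower were called against control males. Length and GC removal, this omission and the sums with pseudogenes were chosen after seeing the data. The cause of these differences was not tested.

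Embryos of the same replicate number correlated weakly (10 pairs, r from -0.136 to 0.178, 3 over 0.1). The labels do not say whether the numbers pair embryos by litter or preparation, and these values cannot decide it. With a replicate block, 33 of the family were lower against control females and 32 against control males, with 2875 and 3418 genes called. Without the block the family counts were 36 and 19, with 4073 and 2940 genes called.

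Leaving out 1 embryo, the log2 ratio of Rps27l to Rps27 in affected females minus control males ranged from -0.106 to 0.082. That of Rpl22l1 to Rpl22 ranged from -0.994 to -0.808 against control females and from -0.697 to -0.511 against control males. Genes of a few CPM, such as Rpl11 and Rps13, are limited by depth.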
